A study of Mus musculus with 2 samples.

Results

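NF-κB is a family of transcription factors that act as pairs of subunits. In resting cells inhibitors of the IκB family hold them in the cytoplasm, and signals from tumour necrosis factor, interleukin-1, Toll-like receptors or phorbol esters lead a kinase complex to mark the inhibitor for destruction, so that the subunits enter the nucleus. The genes they switch on include their own inhibitors, which ends the response, and inflammatory genes such as those of tumour necrosis factor, cyclo-oxygenase-2 and adhesion molecules, and in skin the TPA step of chemical carcinogenesis is a known trigger.

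The genes described are 4 subunits (Nfkb1, Nfkb2, Rela and Relb), 3 inhibitors (Nfkbia, Nfkbiz and Tnfaip3) and 3 inflammatory targets (Tnf, Ptgs2 and Icam1). They were read from every probe set that the platform annotation gives to exactly 1 of them. Of the 10 named genes 9 had such a probe set, 18 probe sets in all, out of 18193 genes and 34945 probe sets named on the array. Nfkb1 had none and was not analysed here.

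The arrays measured RNA of CD34-positive tumour epithelial cells sorted from skin tumours, with a single Affymetrix 430 2.0 array from a wild-type animal and another from a K14CreER:Rosa-VEGF-164 animal, called the VEGF array. The sort used antibodies to CD34, α6-integrin and Epcam, and put CD45, CD31 and CD140a on a common dye. Both mice had received the carcinogen DMBA at postnatal days 23, 25 and 27, then repeated TPA over several weeks, and DMBA again at 7 weeks of age. In the second mouse a keratin 14 promoter drives an inducible Cre recombinase and the Rosa allele carries VEGF-164, per the labels, which do not give the age at collection or how Cre was switched on. The comparison asks what gain of VEGF goes with in the transcripts of these cells.

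Signals are MAS5 values in arbitrary units, anti-logged from the deposited log2 values. Each log2 ratio divides the VEGF array by the wild-type array, so 1 means 2-fold higher and -1 means 2-fold lower. With 1 array per genotype there was no replicate error and no test between genotypes, and a fixed 2-fold rule was used to describe size. The spread used in its place was how far probe sets of a gene disagreed, an SD of 0.50, 0.42 and 0.32 on the log2 scale for probe sets in the low, middle and high tertiles of signal (4885 genes). It leaves out differences between mice, tumours, sorts and hybridisations.

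The background level came from 80 probe sets for odorant and pheromone receptors and stood at 19.8 (wild-type array) and 11.3 (VEGF array). The epithelial label was borne out by Krt14 (8990 on the wild-type array, 8571 on the VEGF array) and Krt5 (8352 and 7875), keratins of basal epidermis, and the sort genes Cd34 (430 and 751), Itga6 (3952 and 2421) and Epcam (1597 and 1905) were well above background. The CD45 gene Ptprc read 14.4 on the wild-type and 17.3 on the VEGF array, which was above background on the VEGF array only. That reading of 17.3 is below the wild-type background of 19.8, so no gain of Ptprc follows. The gained gene, Vegfa, was lower on the VEGF array (397 against 804, log2 ratio -1.02), and whether its probe sets read the transgene is not known here, so every direction below follows the label.

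No NF-κB gene was 2-fold apart between the arrays by the probe set with the highest mean signal, which stands for the gene throughout. Of 9 measured genes 0 reached 2-fold higher and 0 reached 2-fold lower, where 3.87% and 8.53% of the 12198 genes with a ratio did (12.4% in either direction). After quantile normalization those shares were 4.94% and 4.73%, so that higher genes made up 51.1% of those 2-fold apart and not 31.2%. The members' median log2 ratio was -0.08, beside -0.04 over all genes, and 7 of the 9 lay within 0.5 of 0, as did 64.9% of genes above background on both arrays. The remaining pair, the inhibitor gene Tnfaip3 (0.93) and the cyclo-oxygenase gene Ptgs2 (0.79), were both higher on the VEGF array. All 18 probe sets were above background on both arrays, and 1 of them, the dimmer of the Ptgs2 pair, reached 2-fold higher, while 0 reached 2-fold lower (3.53% and 10.3% of all named probe sets).

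**Figure D1:**
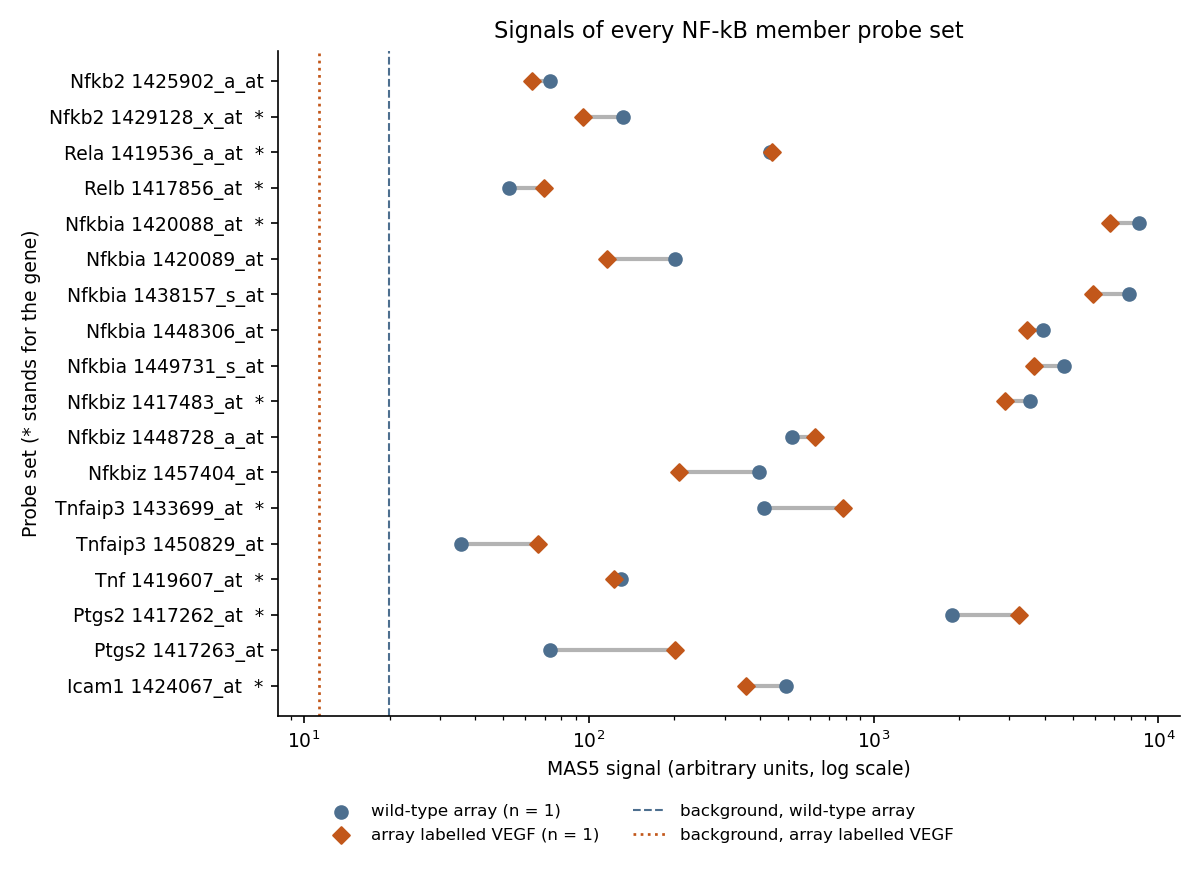
Signal of each of the 18 probe sets of the NF-κB genes on the wild-type array (circles) and the VEGF array (diamonds), 1 array each, on a log axis in arbitrary units; vertical lines are the background levels of 19.8 and 11.3 and an asterisk marks the probe set that stands for its gene. The pairs of points lie close together for most probe sets, while both Tnfaip3 pairs and both Ptgs2 pairs are spread apart with the VEGF array to the right, and 1 Nfkbiz pair (395 and 208) and the dimmest Nfkbia pair (200 and 116) about as far with it to the left.

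Among the subunits, Rela, which encodes the main activating subunit p65, was nearly equal. Its only probe set read 432 on the wild-type and 439 on the VEGF array, a log2 ratio of 0.02, or -0.03 after quantile normalization. Relb, the activating subunit of the alternative pathway that follows lymphotoxin and CD40-type receptors, read 52.6 and 69.6 (log2 ratio 0.41), less than the SD of 0.50 between probe sets at that signal. Nfkb2 encodes the precursor p100, which restrains RelB until it is cut to its active form. Its brighter probe set read 132 on the wild-type and 95.5 on the VEGF array (-0.47), and its dimmer one 72.9 and 63.0 (-0.21). So the partners of the alternative pathway lay on opposite sides of 0, with differences of 0.82 and 1.12 times the probe set SD. The brighter Nfkb2 probe set is of a type (_x_at) that can bind several transcripts, and without it Nfkb2 was at -0.21.

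The inhibitors split. Nfkbia encodes IκBα, the inhibitor that NF-κB itself induces within minutes to close the response, and it was slightly lower on the VEGF array by all 5 of its probe sets. The brightest read 8533 on the wild-type and 6789 on the VEGF array (log2 ratio -0.33). The next brightest read 7904 and 5913 (-0.42), and another 4672 and 3672 (-0.35). The last pair read 3936 and 3468 (-0.18) and 200 and 116 (-0.78). The median of the 5 ratios was -0.35 with an SD of 0.22 between them, and after quantile normalization the brightest probe set was at -0.05.

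Tnfaip3 went the other way. It encodes A20, a ubiquitin-editing enzyme that shuts off signalling from the tumour necrosis factor and interleukin-1 receptors and is also an NF-κB target. Its brighter probe set read 411 on the wild-type and 781 on the VEGF array, a 1.90-fold difference (log2 ratio 0.93) that is 2.88 times the probe set SD of 0.32. Its dimmer probe set read 35.8 and 66.3, 1.85-fold (0.89). The probe sets, which differ several-fold in signal, thus gave ratios 0.04 apart. A ratio at least as large in size was found for 12.1% of genes above background on both arrays.

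Nfkbiz encodes IκBζ, an atypical nuclear IκB that helps NF-κB at a subset of genes and is active in keratinocytes. Its 3 probe sets did not run together. The brightest read 3534 on the wild-type and 2902 on the VEGF array (log2 ratio -0.28), the second 516 and 622 (0.27), and the third 395 and 208 (-0.93). The gap of 1.20 between the last pair of ratios is larger than any difference between arrays for this gene, and no direction is given for Nfkbiz.

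**Figure D2:**
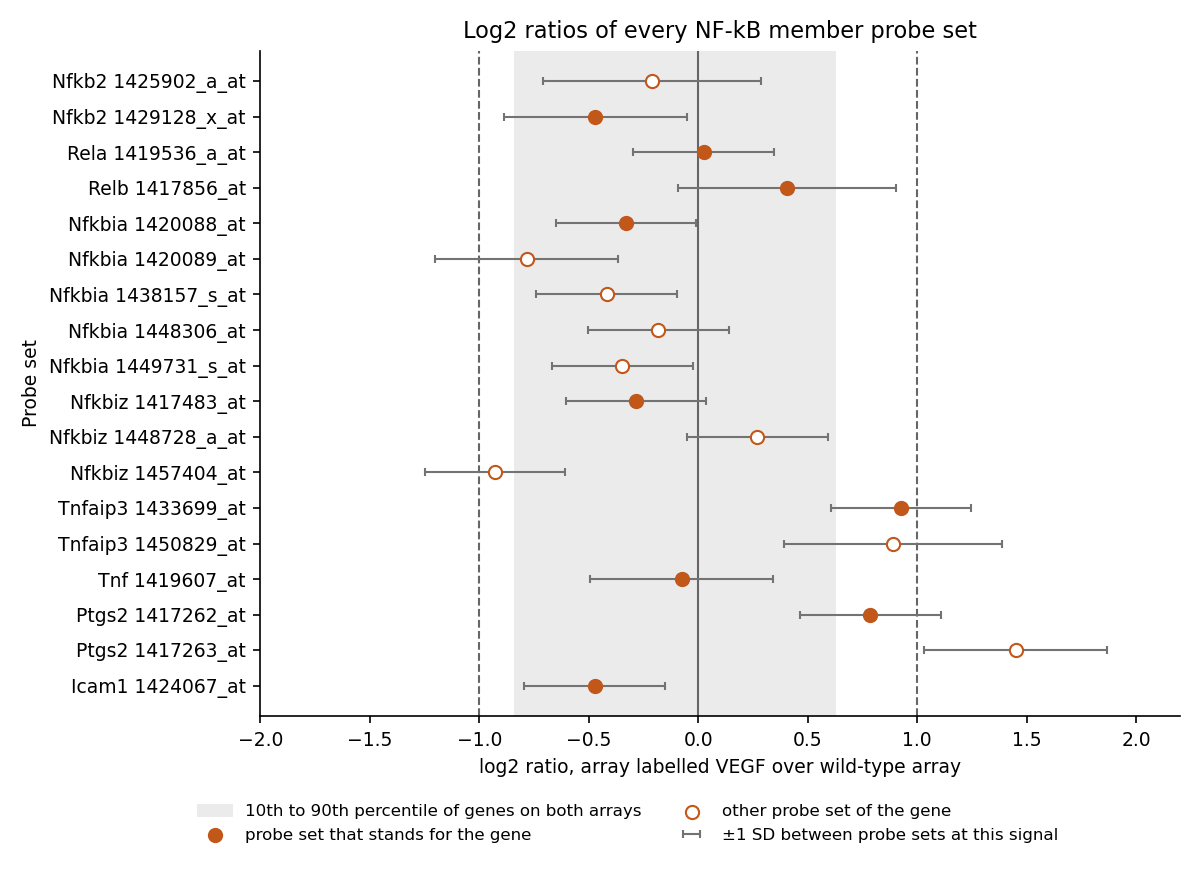
Log2 ratio of each NF-κB probe set, VEGF array over wild-type array, with bars of 1 SD between probe sets of the same gene at that signal; filled points stand for the gene, dashed lines mark 2-fold, and the grey band spans the 10th to the 90th percentile of genes above background on both arrays (-0.84 to 0.62). The gene-level points of Tnfaip3 (0.93) and Ptgs2 (0.79) lie right of the band, the 5 Nfkbia points all lie left of 0, and the 3 Nfkbiz points straddle it.

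Among the targets, Ptgs2 had the largest ratio of any probe set. It encodes cyclo-oxygenase-2, which makes the precursor of prostaglandins and is induced by TPA in skin. Its brighter probe set read 1879 on the wild-type and 3240 on the VEGF array, 1.72-fold higher (log2 ratio 0.79, 2.44 times the probe set SD). Its dimmer probe set read 73.4 and 201, 2.73-fold higher (1.45). Both were higher on the VEGF array, and the size differed by 0.66 between them, so Ptgs2 passed 2-fold by the median of its probe sets (1.12) and not by the brighter one.

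Tnf, the cytokine gene that both feeds and follows the pathway, was nearly equal. Its probe set read 130 on the wild-type and 123 on the VEGF array (log2 ratio -0.08). Icam1, an adhesion molecule to which leukocytes bind, was slightly lower, with 495 and 357 (-0.47, 1.47 times the probe set SD). The 3 targets thus did not run together, with Ptgs2 higher, Tnf level and Icam1 lower.

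Markers that could move with these genes were read beside them. Of 9 early response genes, which react to growth factors and to tissue dissociation, 9 had a ratio below 0 (52.9% of all genes did). Their median was -0.70, and 0 were 2-fold apart by the brightest probe set (12.4% of all genes were). A second Jun probe set read 1165 on the wild-type and 377 on the VEGF array (-1.63), so Jun was at -1.24 by the median of its probe sets. Nfkbia lay on the same side of 0 as these genes, and Tnfaip3 and Ptgs2 on the other. Of 12 leukocyte markers 5 had a ratio, 2 above 0 and 3 below with a median of -0.53. The summed signal of the list was 268 on the wild-type and 266 on the VEGF array. That sum takes in markers below background, which was 19.8 on the wild-type and 11.3 on the VEGF array. Equal sums therefore do not show equal leukocyte signal. Coro1a was 2.51-fold higher (64.7 against 25.8), or 1.91-fold by the median of its probe sets and 1.58-fold with an offset of 50 in place of the background level, and Cd68 had a log2 ratio of 0.67. The ratios below 0 were those of Laptm5 (-0.53, with another probe set at -2.34), Csf1r (-0.82) and Tyrobp (a bound of -0.96). The integrin genes Itgam, Itgb2 and Itgal, the T-cell gene Cd3e and the B-cell gene Cd79a were at or below background on both arrays. Of 6 endothelial markers 4 had a ratio and 0 were 2-fold apart. Their summed signals were 89.0 and 126, and the same limit applies to these sums. Cdh5 read 27.3 on the wild-type and 16.8 on the VEGF array (-0.70), Kdr 30.6 and 42.5 (0.47), and the CD31 gene Pecam1 3.07 and 22.0 (a bound of 0.15). Emcn had a bound of 0.46, and Tek and Tie1 were below background on both arrays. Of 7 fibroblast markers 2 were at least 2-fold higher (3.87% of all genes were), Col1a2 (942 against 324, 2.91-fold) and Col3a1 (1235 against 490, 2.52-fold). Col1a1 had a log2 ratio of 0.80, or 1.42 by the median of its probe sets. The summed signals were 1156 and 2677, with the collagen genes the brightest of the list. The ratio was above 0 for 5 of the 7 and below 0 for 2, Dcn (-0.34) and Pdgfrb (-0.07). Pdgfra, which encodes CD140a, read 9.86 and 34.7 (a bound of 0.80). Like Pecam1, it was above background on the VEGF array only. So was Ptprc, but its VEGF reading of 17.3 was below the wild-type background of 19.8, and it had no ratio. The part of early response, leukocyte, endothelial or fibroblast RNA in the values of Nfkbia, Tnfaip3, Ptgs2 and the pathway genes below was not tested. In such bulk samples fewer cells of a type and less RNA per cell cannot be told apart.

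Promoter sequence was read from RefSeq (GRCm38.p6) for the 7 members the table holds. The 250 bases upstream of each annotated start were searched on both strands for the κB decamer consensus, the site NF-κB subunits bind, and for the AP-1 site TGANTCA, the site of Fos and Jun; overlapping matches were kept, and κB and AP-1 matches did not overlap in the sequences shown. The κB consensus was found for 3 of 7 members (Nfkb2, with several annotated starts, Nfkbia and Tnfaip3), for 21 of 56 other pathway genes with a promoter, and for 8.23% of all 27025 genes in the table. The AP-1 site was found for 2 members (Nfkb2 and Tnfaip3), for 5 of 56 other pathway genes and for 7.82% of all genes. The other members searched, Rela, Tnf, Ptgs2 and Icam1, held neither. The upstream stretches of the inhibitor genes are shown because Nfkbia and Tnfaip3 both hold the consensus and lay on opposite sides of 0. Capitals mark the matches, read 5′ to 3′ on the strand of the gene. That of Nfkbia is chr12:55492648-55492897 and that of Tnfaip3 is chr10:19015411-19015660, both on the minus strand.
Nfkbia: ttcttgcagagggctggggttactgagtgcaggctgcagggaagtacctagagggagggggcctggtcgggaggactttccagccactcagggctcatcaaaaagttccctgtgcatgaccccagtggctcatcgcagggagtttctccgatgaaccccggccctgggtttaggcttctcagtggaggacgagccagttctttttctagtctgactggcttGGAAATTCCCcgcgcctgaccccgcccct
Tnfaip3: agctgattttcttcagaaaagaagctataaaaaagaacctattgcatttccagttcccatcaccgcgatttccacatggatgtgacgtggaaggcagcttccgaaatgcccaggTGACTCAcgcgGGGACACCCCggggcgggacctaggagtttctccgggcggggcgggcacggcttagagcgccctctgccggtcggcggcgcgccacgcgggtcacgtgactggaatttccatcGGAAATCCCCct

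In Nfkbia the κB match spans bases -29 to -20 from the annotated start. In Tnfaip3 κB matches lie at -125 to -116 and at -12 to -3, and the AP-1 match at -136 to -130. The reverse strand of the Nfkbia match reads GGGAATTTCC, and among the listed genes the same letters occur upstream of Cxcl1 and Cxcl2, genes of neutrophil-attracting chemokines, and of Map3k7, which encodes the kinase TAK1. The chemokine genes were chosen for display, and Map3k7 for naming, after their values were seen. The windows of 30 bases are chr5:90891164-90891193 for Cxcl1 and chr5:90903792-90903821 for Cxcl2, both on the plus strand, and the capitals cover a pair of overlapping κB matches on opposite strands.
Cxcl1: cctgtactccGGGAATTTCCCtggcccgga
Cxcl2: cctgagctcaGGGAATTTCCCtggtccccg

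These 4 listed genes had log2 ratios of -0.33 (Nfkbia), -0.05 (Cxcl1, 3943 on the wild-type and 3798 on the VEGF array), 0.10 (Cxcl2, 1149 and 1234) and 0.61 (Map3k7, 93.0 and 142), on both sides of 0. Across the array, 1058 genes with a κB match in this window had a median log2 ratio of -0.10, with 4.16% reaching 2-fold higher and 10.2% reaching 2-fold lower, and 8781 genes without one had a median of -0.03, with 3.71% and 7.86%. A match is a string of letters and not a measured binding site.

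The rest of the pathway was read from a list of 70 further genes, of which 65 had a probe set, 57 a ratio and 8 none, as 7 were below background on both arrays and the bound of 1 was under 1-fold. Of the 57, 3 reached 2-fold higher and 3 reached 2-fold lower on the VEGF array, 10.5% together beside 12.4% of all genes, with a median log2 ratio of 0.03. The higher genes were Tnfaip2, Ikbke and Tlr2, and the lower ones Lcn2, Nfkbid and Cd40. Where a gene was above background on only 1 array, its fold is a lower bound against the background level of the other.

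Tnfaip2, a gene induced by tumour necrosis factor whose protein shapes membrane protrusions, had the largest ratio of the list. Its brightest probe set, of the _x_at type, read 58.2 on the wild-type and 320 on the VEGF array, 5.49-fold higher, and a second read 31.7 and 133 (log2 ratio 2.06). Ikbke, which encodes an IκB-related kinase of antiviral signalling that is itself an NF-κB target, read 9.23 and 83.8, at least 4.22-fold higher, and got no value under a stricter signal filter. Tlr2, a receptor for bacterial lipoproteins, read 16.3 and 41.3, at least 2.08-fold higher, and was at 0.54 on the log2 scale when an offset of 50 replaced the background level.

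Lcn2, the iron-trapping lipocalin gene that NF-κB and IκBζ induce in epithelia, was 4.95-fold lower, with 80.7 on the VEGF array and 399 on the wild-type array. Nfkbid, an atypical nuclear IκB, read 17.9 against 37.7 (2.11-fold lower), and Cd40, a receptor of the alternative pathway, 8.46 against 23.3 (at least 2.06-fold lower). These last values sit near background: with the higher background level used on both arrays Nfkbid was at -0.93 and Cd40 at -0.23. Of the genes listed as other targets, only Tnfaip2 and Lcn2 were 2-fold apart, on opposite sides of 0. That is 12.5% of those with a ratio, beside 12.4% of all genes.

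The counts by role are set beside the 12.4% of all genes that were 2-fold apart. Of 8 kinase genes with a ratio only Ikbke was 2-fold apart (12.5%). The remaining 7 lay between -0.23 and 0.61, with Map3k7 highest. Ikbkb and Ikbkg, which encode a catalytic and the regulatory part of the IκB kinase, had ratios of 0.00 (220.5 and 221) and 0.12 (102 and 111). Chuk, which encodes another catalytic part, and the adaptor genes Traf3, Ripk1 and Irak4 had no probe set of their own. Of 8 adaptor genes 0 were 2-fold apart, with Malt1, a paracaspase that carries the protein kinase C signal triggered by phorbol esters, at 0.61 and Tradd, which links the tumour necrosis factor receptor to its kinases, at 0.44; the other Malt1 probe sets gave down to -1.06. Of 9 feedback genes besides Tnfaip3 0 were 2-fold apart. By the brightest probe set 7 had a ratio above 0, as did 47.1% of all genes, but by the median of their probe sets only 3 did. Those 3 were Cyld, a deubiquitinase (0.69 by its brightest probe set, others down to -0.22), Tnip1, a partner of A20 (0.50), and Tnip2 (a bound of 0.48). Itch, Rnf11, Tax1bp1 and Zc3h12a lay between 0.03 and 0.13 by the brightest probe set and between -0.50 and -0.23 by the median, so no direction is given for the group.

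Ligand genes were mostly dim, with 2 of 5 above background. The interleukin-1 genes lay on opposite sides of 0, Il1b reading 86.4 on the wild-type and 48.4 on the VEGF array (log2 ratio -0.84), and Il1a 44.9 and 64.5 (0.52). Of 9 receptor genes with a ratio 5 were bounds. Of 16 other target genes 1 reached 2-fold higher (Tnfaip2) and 1 reached 2-fold lower (Lcn2), 12.5% together beside 12.4% of all genes. Their median was -0.04.

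**Figure D3:**
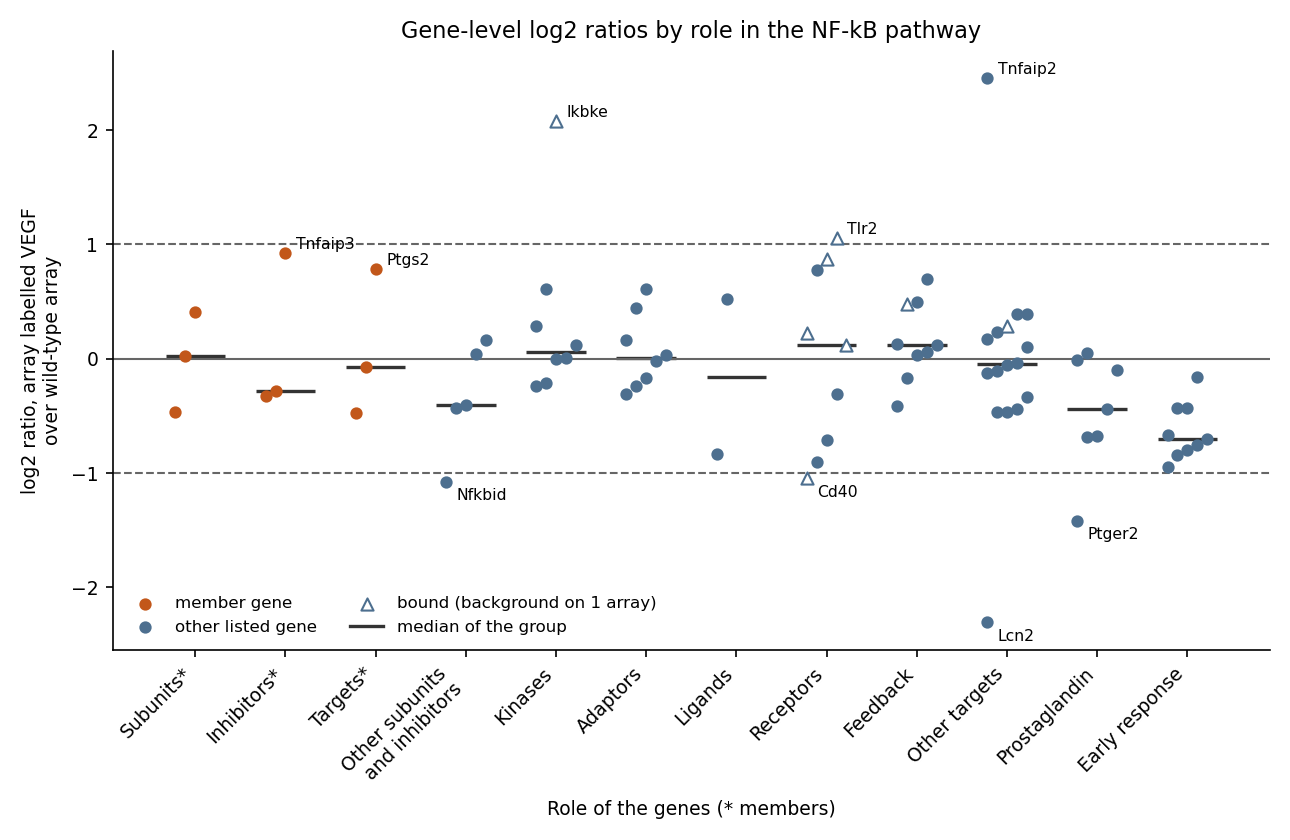
Gene-level log2 ratios, VEGF array over wild-type array, of NF-κB member genes (first 3 groups) and of further listed genes grouped by role; open triangles are bounds, horizontal bars are group medians and dashed lines mark 2-fold. Most points lie between the dashed lines, Tnfaip2 and Ikbke lie highest, Lcn2 lies lowest, and all 9 early response genes lie below 0.

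Of 7 prostaglandin genes with a ratio, 0 reached 2-fold higher and 1 reached 2-fold lower, where 3.87% and 8.53% of all genes did. The list mixes genes of synthesis, removal and reception, so its counts and median give no direction for prostaglandin output. The ratio was below 0 for 6 of them, as for 52.9% of all genes, with a median of -0.44. Of these 6, Pla2g4a (-0.01) and Ptges2 (-0.10) were near 0, and Hpgd (-0.69) and Slco2a1 (-0.44) act in the removal of prostaglandins. Ptges, the inducible synthase that acts after cyclo-oxygenase-2 to make prostaglandin E2, read 314 on the wild-type and 324 on the VEGF array (0.05). Its other probe sets were at 0.33 and -0.51. Ptger2, a receptor for prostaglandin E2, read 84.4 and 31.6, 2.67-fold lower, or -0.63 on the log2 scale with the offset of 50.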

How the data were processed

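The authors deposited 1 table of log2 signals with a column for each of the 2 arrays. Per the labels, 100 ng of total RNA per sample was amplified and labelled by in vitro transcription, and the submitters' processing notes name MAS5, which summarises each probe set on each array. For its version and target intensity the entry is: not given in the sources used here. On the linear scale the 2% trimmed mean was 100.04 for each array.

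Of 45101 probe sets, 64 were controls, 34945 others had exactly 1 gene in the platform annotation and 932 had several. For 34741 the gene ID matched RefSeq's GRCm38.p6 table, where 0 symbols differed. Background on each array was the 90th percentile of the receptor probe sets. Each gene was read from its probe set of highest mean signal on the log2 scale, ratios used that floor, and genes dim on both arrays, or with a bound under 1-fold, got none. Probe set SD was the SD of the difference between a gene's 2 brightest probe sets over the square root of 2.

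The members and lists were chosen with earlier results of these data known. Named genes were all members, list genes at least 2-fold apart, in pathway roles with none the 2 largest ratios, the genes of the sort antibodies (Ptprc, Pecam1 and Pdgfra included) and Vegfa. All other genes named, among them the remaining cell type markers, were added after their values were seen. Calculations used Python 3.11.15, numpy 2.4.6 and pandas 2.3.3 and were tested on simulated arrays with known ratios. The changed genes there were bright and the noise was smaller than the probe set SD here. That check covers the arithmetic and not how well ratios are recovered in these data.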

Additional observations from a re-analysis of the deposited data

How the results depend on the processing

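The 9 measured genes were recomputed under 8 other settings, giving 72 values. Many of these could not differ from the reported ones. All 18 member probe sets were above background on both arrays. A common background level, no filter and the stricter filter therefore returned the same ratios. Leaving out _x_at and _s_at probe sets changed only Nfkb2, and the median over probe sets cannot change a gene with 1 probe set. The counts below include these repeats and so overstate how far stability was checked. For the 8 genes other than Nfkbiz, the sign was the reported one in 63 of 64 values, the exception being Rela after quantile normalization (-0.03). Rela and Tnf were nearly equal on the arrays, so their signs give no direction. Of the 72 values 1 moved by more than the probe set SD, that of Ptgs2 with the median over probe sets (1.12), where 1 member was at least 2-fold higher. After quantile normalization 2 member probe sets were at least 2-fold higher, the second being the dimmer Tnfaip3 one (1.11). Pathway genes at least 2-fold lower numbered 1 with a common background level, with the offset of 50, with quantile normalization and with a stricter signal filter. The filter also left 1 higher, as fewer genes (41) remained. Without a background filter, which adds dim genes, 7 were higher and 5 lower. The cause of the other moves was not tested. The median over all genes was 0.08 with the offset and -0.04 as reported. Single arrays limit every value. No paired analysis was possible because each genotype had 1 array.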
